A study of Mus musculus with 8 samples.

Results

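The 37 genes described here encode proteins that repair DNA or halt the cell cycle while DNA is damaged or incompletely copied. They were listed by name from the main repair pathways and the checkpoint kinases; the list sets no limit on expression, but it was drawn up with earlier results of these data known. Of the 37, 36 have at least 1 named probe on the array and 28 passed the detection filter, out of 19057 named genes and 9062 that passed it. The listed name Claspn was read as Clspn, the mouse symbol for claspin, and Xrcc2 has no named probe here.

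Expression was measured on Illumina bead arrays in 8 samples of intestinal organoids, epithelial cultures grown from mice of C57Bl background aged 3 to 4 months. In all 8 samples Apc, a negative regulator of Wnt signalling, was mutated with tamoxifen, and growth factors were then withdrawn. TGF-beta, a cytokine that restrains the division of epithelial cells, was given to 4 samples at 3 ng/ml for 18 h, and 4 samples were left untreated. Samples with intact Apc were not analysed here, and the labels name neither the Apc allele nor the driver of the recombinase. Samples carry the numbers 1 to 4 within a group, and the labels do not say whether they are separate cultures or animals. The p-values weigh each difference against the spread of these samples, and that spread may be in part technical.

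Homologous recombination copies an intact sister sequence to mend a broken chromosome and is used in S and G2 phase. The Fanconi proteins unhook DNA crosslinks, mismatch repair removes copying errors, base and nucleotide excision repair replace damaged bases or stretches of a strand, and end joining religates broken ends in any phase of the cycle. The kinases ATM and ATR sense breaks and stalled forks and act through CHK2 and CHK1. Many of these genes are transcribed mainly in dividing cells, under E2F factors, and the intestinal crypt is among the fastest dividing tissues of the mouse.

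The 8 arrays detected between 14554 and 16626 probes each (detection p under 0.05). Values are log2 normalized intensities, on which the lowest detected signals of the arrays lie between 5.04 and 5.23. Replicates 1 and 4 differed from replicates 2 and 3 in both groups: Xist, made from the silenced X chromosome of females, was above 9 in replicates 2 and 3 and below 5 in replicates 1 and 4. Eif2s3y, a gene of the Y chromosome, was above 8 in replicates 1 and 4 and below 5 in replicates 2 and 3. The 2 sets of replicates therefore came from animals of different sex. Each set holds treated and untreated samples, so the effect was also computed within each. Of 8 epithelial markers, 7 were detected on every array, and Epcam was detected on 0 untreated and 4 TGF-beta arrays; 6 of the 8 rose, while Cdx2, an intestinal transcription factor, fell (-1.04, adjusted p = 0.00193). The summed intensity of the list ran from 20753 to 24781.9 in untreated and from 45970.6 to 56023.5 in TGF-beta samples. Its brightest probes, which weigh most in the sum, were those of the keratins Krt8 (log2 difference 1.31), Krt19 (1.64) and Krt18 (1.14). Cldn7 did not pass (0.18, adjusted p = 0.600). Of 8 fibroblast markers 6 were detected on no array, among them the collagens Col1a1, Col1a2 and Col3a1. Vim was the fibroblast marker detected throughout, and it fell with TGF-beta (log2 difference -1.42, adjusted p = 0.0208), by -0.59 in the set of replicates 1 and 4 and -2.26 in the other set; the summed intensity of that list ran from 831 to 1833 in untreated and from 562 to 704 in TGF-beta samples. The part of other cells in the results on repair genes was not tested. Of 5 endothelial and 5 muscle markers 0 were detected on all arrays, with summed intensities of 233 to 247 and 322 to 345 in untreated and 228 to 247 and 331 to 410 in TGF-beta samples. Of 5 named immune markers Cd3e was detected on all arrays and Itgam on none (313 to 349 untreated and 324 to 360 with TGF-beta).

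Most of the tested repair and checkpoint genes were lower after TGF-beta. Among the 28 tested, 15 fell, 1 rose and 12 did not pass (limma, adjusted p under 0.05 over all tested probes), while over all 9062 tested genes 9.88% fell and 9.57% rose. The falls were largest for Rad54l (2.98-fold), Ung (2.69-fold), Clspn (2.36-fold), Timeless (2.33-fold), Blm (2.24-fold), Fancd2 (2.15-fold) and Msh6 (2.08-fold), so 7 of 28 fell at least 2-fold against 3.01% of all tested genes. The gene that rose was Ercc1 (2.60-fold). The median difference of the 28 was -0.74 on the log2 scale, and that of all tested genes was -0.05. The sizes depend on the background correction: without it, or in the authors' value table, the median of the 28 was -0.30 and 2 of them fell at least 2-fold (0.916% of all tested genes), and with median scaling 12 did (4.66%). In such bulk samples, fewer dividing cells and less of each transcript per cell cannot be told apart.

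**Figure D1:**
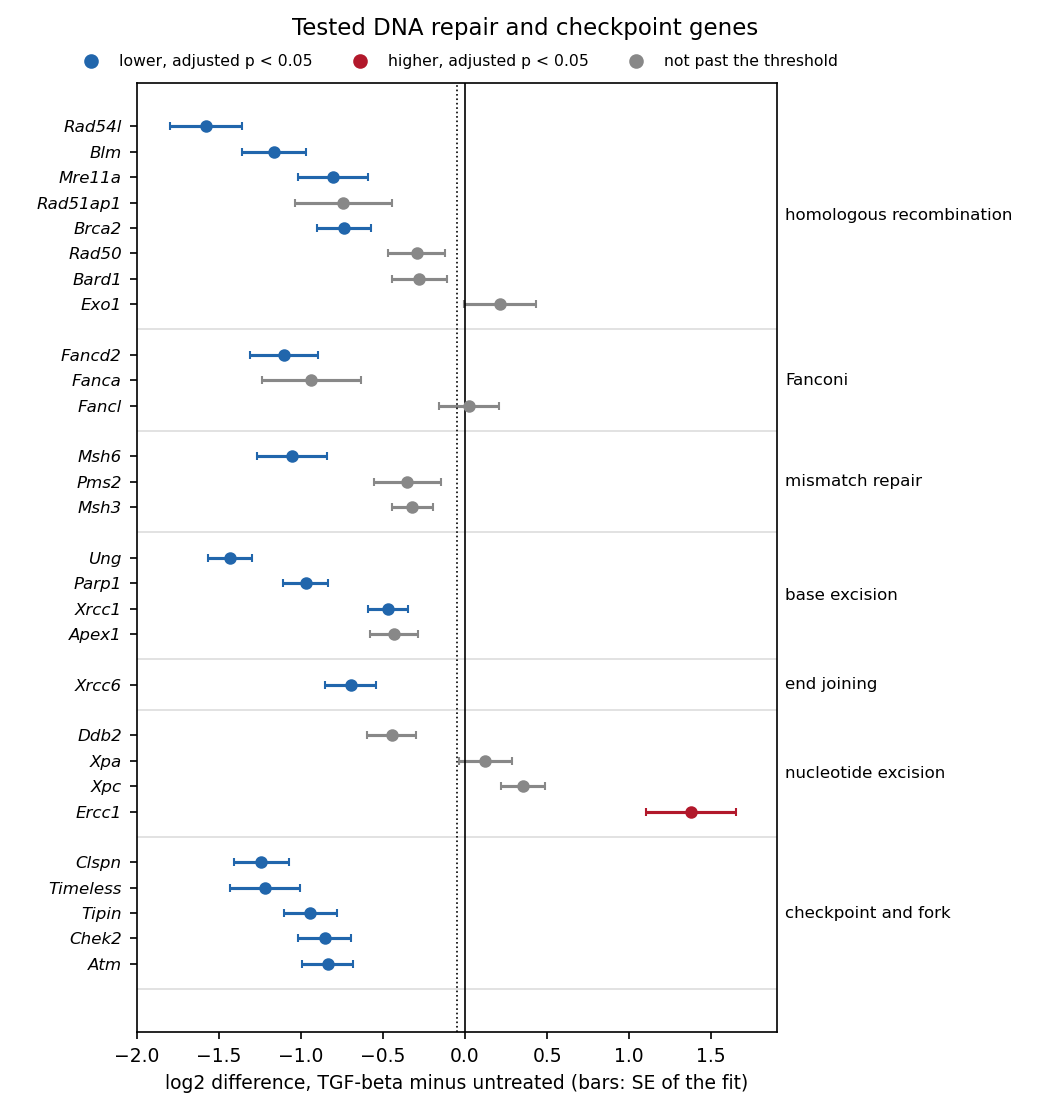
Log2 difference (TGF-beta minus untreated, x axis) of each tested repair or checkpoint gene, grouped by role, with the SE of the fit as bars; the dotted line marks the median of all tested genes. The 15 genes that fell lie between -1.58 and -0.47, and Ercc1 lies at 1.38.

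In 18 of the 28 genes all 4 TGF-beta values lay below all 4 untreated values, against 12.9% of all tested genes. In 1 gene they lay above, against 11.9% of all tested genes. A gene can pass the detection filter through the group in which it is bright, and 5 of the 28 were missed on at least 1 array: Brca2, Bard1, Exo1, Fanca and Msh3. Among the other 23, detected on all 8 arrays, 14 fell and 1 rose. When only probes detected on all 8 arrays were tested, 11.9% of genes fell and 10.9% rose. Blocking on the replicate number gave 18 lower genes, the additions being Fanca (adjusted p = 0.000998), Rad51ap1 (adjusted p = 0.00779) and Ddb2 (adjusted p = 0.0372), against 17.3% of all genes. With the set of replicates as the block instead, Rad51ap1 did not pass (adjusted p = 0.0503) and Apex1 did (adjusted p = 0.0389). Where arrays were scaled to their medians instead, the median of all genes changed from -0.05 to -0.18 and their calls from 895 lower and 867 higher to 941 lower and 495 higher. This scaling gave 15 lower and 1 higher among the 28, with a median of -0.86.

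The start regions of these genes were searched for letters bound by E2F factors, since E2F drives S-phase transcription. RefSeq start windows (GRCm38.p6, 250 bases before to 50 after the start) were found for 29 of the 37 genes, as 30 windows. The words searched on both strands were TTTCCCGC, TTTCGCGC, TTTGCCGC and TTTGGCGC, overlaps allowed. At least 1 of them occurred in 8 of 30 windows (26.7%) and in 2.26% of all 32851 windows. For published S-phase genes that are not among the 37, 11 of 29 windows (37.9%) held a match. Among genes that fell, 5 of 14 windows held a match (Brca2, Chek2, Clspn, Msh6 and Xrcc6), and among tested genes that did not fall, 2 of 9 did (Bard1 and Msh3). The shorter word CCAAT occurred in 18 of 30 windows (60%) and in 37.4% of all windows, and the word TTTGAA, the core of the CHR element of cell cycle genes, in 1 of 30 (3.33%) and in 17.9% of all windows. In the windows of the S-phase genes outside the 37, CCAAT occurred in 65.5% and TTTGAA in 20.7%. A match describes letters and does not show binding. The 250 bases before the start are printed for the genes that fell with a match there, and for Ercc1, which rose and holds none; capitals mark the E2F word, printed as its reverse complement since it lies on the opposite strand, and all 4 run 5′ to 3′ on the plus strand. Brca2 lies at chr5:150522371-150522620, Chek2 at chr5:110839733-110839982, Xrcc6 at chr15:82016119-82016368 and Ercc1 at chr7:19344821-19345070.
Brca2: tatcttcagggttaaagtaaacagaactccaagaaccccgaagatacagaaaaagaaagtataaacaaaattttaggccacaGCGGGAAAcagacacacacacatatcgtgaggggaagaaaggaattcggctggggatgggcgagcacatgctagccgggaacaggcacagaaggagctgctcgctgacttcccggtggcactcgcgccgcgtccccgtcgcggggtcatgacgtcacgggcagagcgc
Chek2: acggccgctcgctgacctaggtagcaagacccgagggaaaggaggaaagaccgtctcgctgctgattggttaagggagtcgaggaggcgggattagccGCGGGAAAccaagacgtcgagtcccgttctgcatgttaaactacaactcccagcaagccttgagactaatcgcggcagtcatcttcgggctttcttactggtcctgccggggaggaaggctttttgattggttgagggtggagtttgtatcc
Xrcc6: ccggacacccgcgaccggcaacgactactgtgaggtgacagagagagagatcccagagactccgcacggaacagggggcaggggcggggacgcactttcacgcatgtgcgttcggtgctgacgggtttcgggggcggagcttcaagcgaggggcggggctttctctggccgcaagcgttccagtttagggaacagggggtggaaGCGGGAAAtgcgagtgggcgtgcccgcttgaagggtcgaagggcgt
Ercc1: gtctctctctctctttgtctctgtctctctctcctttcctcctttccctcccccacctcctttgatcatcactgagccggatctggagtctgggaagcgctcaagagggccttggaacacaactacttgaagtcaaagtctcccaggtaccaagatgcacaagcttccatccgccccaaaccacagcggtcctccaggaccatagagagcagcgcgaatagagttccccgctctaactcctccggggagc
The word begins 168 bases before the start in Brca2, 152 bases before it in Chek2 and 46 bases before it in Xrcc6.

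Among homologous recombination genes, 4 of the 8 tested fell and 0 rose (limma). Before adjustment, p was under 0.05 for 5 lower and 0 higher, against 18% and 14.9% of all tested genes. Rad54l, a motor protein that acts on DNA during strand exchange, gave 9.02, 8.34, 8.38 and 8.97 in untreated replicates 1 to 4 and 7.49, 6.87, 6.80 and 7.24 with TGF-beta. Every treated sample lay below every untreated one, and the difference was -1.58 (SE 0.22, adjusted p = 0.00101). Blm, the helicase mutated in Bloom syndrome, which dissolves crossed strands, gave 9.16, 9.0, 8.78 and 9.16 without and 8.29, 7.57, 7.55 and 8.03 with TGF-beta. The groups did not overlap, the fall was 1.16 on the log2 scale (difference -1.16, SE 0.19, adjusted p = 0.00273), and the other tested Blm probe fell by 1.43. Replicates 2 and 3 were the lowest samples of both genes in the untreated as well as the treated group.

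Brca2, a tumour suppressor required for homologous recombination, was near the detection limit and was seen on 4 untreated and 2 TGF-beta arrays. Its values were 6.03, 5.80, 5.94 and 5.66 in untreated and 5.21, 5.13, 5.38 and 4.78 in treated samples. The groups did not overlap (difference -0.74, SE 0.16, adjusted p = 0.0114). Within replicates 2 and 3 alone the difference was -0.62 and missed the threshold (adjusted p = 0.0641). Mre11a, the nuclease of the complex that first binds broken ends, fell from 8.12 ± 0.18 to 7.32 ± 0.43 (SD, n = 4, adjusted p = 0.0263). Its call was lost without untreated replicate 1 (adjusted p = 0.0741), untreated replicate 4 (0.0654) or TGF-beta replicate 3 (0.0628), and when its 3 tested probes were averaged (-0.38, adjusted p = 0.111) or no filter was set (adjusted p = 0.0603). Rad50, the ATPase of the same complex, gave -0.29 (SE 0.17, adjusted p = 0.290), and Nbn, its adaptor, was detected on 0 arrays; whether Mre11a and Rad50 differ was not tested.

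Rad51ap1, which stimulates strand pairing, gave 7.10 in untreated replicate 1 against 5.76 to 5.88 in the other untreated samples, and its difference of -0.74 did not pass (SE 0.30, adjusted p = 0.115). Its other tested probe passed (-0.68, SE 0.20, adjusted p = 0.0375) with groups that did not overlap. That probe was detected on 4 untreated arrays and 1 TGF-beta array. Its treated level is therefore mostly below background, and the size of the difference is uncertain. Bard1, the partner of BRCA1, gave -0.28 (adjusted p = 0.295), and Exo1, a nuclease that resects ends, gave 0.21 (adjusted p = 0.565), both near the lowest detected signals. Brca1 itself was not tested, since of its 2 probes 1 was detected on 0 arrays and the other on 2 untreated and 0 TGF-beta arrays. That probe read 5.13, 5.04, 5.13 and 5.09 in untreated and 4.60, 4.36, 4.76 and 5.0 in treated samples. The groups did not overlap, but the untreated mean of 5.10 lay at the lowest detected signals, so no fold is given. Xrcc3, which also acts in homologous recombination, was detected on 3 untreated and 0 TGF-beta arrays and was also untested. Its mean was at least 1.05-fold lower with TGF-beta, but untreated replicate 1 (4.63) lay below TGF-beta replicate 3 (4.72), so the groups overlapped.

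Of the Fanconi genes, 1 of the 3 tested fell and 0 rose (limma). Before adjustment, p was under 0.05 for 2 lower and 0 higher, against 18% and 14.9% of all tested genes. Fancd2, which with FANCI forms the clamp that is ubiquitinated at crosslinks, gave 7.36, 6.99, 6.67 and 7.03 in untreated and 5.73, 5.68, 5.78 and 6.44 in treated samples. TGF-beta replicate 4 was the highest treated sample and still lay below all untreated ones (difference -1.10, SE 0.21, adjusted p = 0.00524; -1.10 in each set of replicates). Fanca, of the core ubiquitin ligase, gave -0.94 (SE 0.30, adjusted p = 0.0565) with overlapping groups. It was detected on 4 untreated and 2 TGF-beta arrays, and it passed without untreated replicate 2 (adjusted p = 0.0417) or TGF-beta replicate 1 (0.0237), and within each set (-0.81 in replicates 1 and 4, adjusted p = 0.0263, and -1.07 in replicates 2 and 3, adjusted p = 0.00996). Fancl, the catalytic subunit of that ligase, gave 0.02 (SE 0.18, adjusted p = 0.951), being negative in replicates 1 and 4 (-0.35) and positive in replicates 2 and 3 (0.40). Fanci was detected on 2 untreated and 0 TGF-beta arrays and Fancg on none, and neither was tested.

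Mismatch repair was represented by 3 tested genes, of which Msh6 fell and 0 rose. Msh6, which takes part in recognising single mispaired bases, gave 10.91, 10.47, 10.55 and 10.72 in untreated and 10.09, 9.19, 9.32 and 9.83 in treated samples. The groups did not overlap (difference -1.05, SE 0.21, adjusted p = 0.00698), and its other probe gave -0.98 (adjusted p = 0.0038). Msh3, which takes part in recognising larger loops, was detected on 4 untreated and 0 TGF-beta arrays. Its probe with the highest mean was at least 1.13-fold lower without passing the test (adjusted p = 0.111). The other tested Msh3 probe was at least 1.07-fold lower with overlapping groups and did not pass either (-0.50, adjusted p = 0.0673). With its tested probes averaged, Msh3 passed as lower. Pms2, an endonuclease of the pathway, gave -0.35 (adjusted p = 0.277).

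In base excision repair, 3 of 4 tested genes fell and 0 rose (limma). Before adjustment, p was under 0.05 for 4 lower and 0 higher, against 18% and 14.9% of all tested genes. Ung, the glycosylase that removes uracil from DNA, had the smallest adjusted p of the 37 genes, with 9.42, 9.53, 9.56 and 9.63 in untreated and 8.20, 8.15, 8.21 and 7.87 in treated samples. The groups lay more than 1 log2 unit apart (difference -1.43, SE 0.13, adjusted p = 0.000103). The other tested Ung probe fell by less, with overlapping groups (-0.60, adjusted p = 0.0338). Parp1, which marks nicked DNA with ADP-ribose chains, gave 9.94, 9.74, 9.81 and 9.89 without and 9.06, 8.82, 8.63 and 8.97 with TGF-beta. The groups of this Parp1 probe did not overlap (difference -0.97, SE 0.14, adjusted p = 0.0012). Of the other tested Parp1 probes, 1 fell (-0.91, adjusted p = 0.00218) and 1 did not pass (-0.36, adjusted p = 0.179). Xrcc1, the scaffold that PARP1 recruits to nicks, fell from 7.52 ± 0.07 to 7.05 ± 0.08 (SD, n = 4, adjusted p = 0.0237). That call was lost with median scaling (-0.64, adjusted p = 0.0515), without untreated replicate 1 (adjusted p = 0.0672), untreated replicate 2 (0.0635), untreated replicate 4 (0.0560) or TGF-beta replicate 2 (0.0560), and within each set alone, where the differences were -0.47 and -0.47. Apex1, the endonuclease that cuts at abasic sites, gave -0.43 (SE 0.15, adjusted p = 0.0707) with groups that did not overlap.

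Of the Ku heterodimer, which caps broken ends for end joining, Xrcc6 fell from 10.18 ± 0.16 to 9.49 ± 0.22 (SD, n = 4), or 1.62-fold (adjusted p = 0.0122). Its 2 other tested probes did not pass (-0.44 and -0.29), and with the 3 averaged the difference was -0.48 (adjusted p = 0.0524). Xrcc5, the other subunit, has 1 named probe, which was detected on 0 arrays, so its transcript could not be assessed.

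Of the nucleotide excision genes, 0 of 4 tested fell and Ercc1 rose (limma). Before adjustment, p was under 0.05 for 1 lower and 2 higher, against 18% and 14.9% of all tested genes. Ercc1, which with XPF cuts the damaged strand on its 5′ side, gave 7.17, 6.21, 6.71 and 6.83 in untreated and 8.55, 7.74, 7.59 and 8.56 in treated samples. All treated values exceeded all untreated ones (difference 1.38, SE 0.27, adjusted p = 0.00667), by 1.55 in replicates 1 and 4 and 1.20 in replicates 2 and 3. The gene has 1 named probe, so no other probe checks the rise. Its locus overlaps that of Cd3eap in the RefSeq table, and Cd3eap gave 0.08 (SE 0.19, adjusted p = 0.835). Xpc, which senses distorted helices, gave 0.35 (SE 0.14, adjusted p = 0.105), and Xpa, which verifies the lesion, gave 0.13 (SE 0.16, adjusted p = 0.653). Ddb2, the sensor of ultraviolet lesions in chromatin and a p53 target in human cells, gave -0.45 (SE 0.15, adjusted p = 0.0657) with groups that did not overlap. Another Ddb2 probe passed (-0.53, adjusted p = 0.0290), and Acp2, whose locus overlaps it, also fell (-0.50, adjusted p = 0.0378). Whether this role differs from the others was not tested.

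All 5 tested checkpoint and fork genes fell. Clspn encodes claspin, which brings CHK1 to ATR at stalled forks, and it gave 8.25, 7.99, 8.14 and 7.92 in untreated and 7.23, 6.76, 6.82 and 6.54 in treated samples. The groups did not overlap (difference -1.24, SE 0.17, adjusted p = 0.000893), and of its 3 other tested probes 2 fell, by 0.95 and 1.52 on the log2 scale (differences -0.95 and -1.52). Timeless and Tipin form the complex that holds claspin at the fork. Timeless gave 7.71, 7.44, 7.57 and 7.31 without and 6.87, 6.36, 5.88 and 6.05 with TGF-beta, again with no overlap (difference -1.22, SE 0.21, adjusted p = 0.0034). Tipin gave 9.15, 8.67, 9.11 and 9.30 without and 8.19, 8.04, 8.22 and 8.02 with TGF-beta (difference -0.94, SE 0.16, adjusted p = 0.00302), the treated samples lying closer together than the untreated. The other tested Tipin probe gave -0.38 with overlapping groups and did not pass (adjusted p = 0.200).

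Among the kinases, Chek2 gave 7.16, 6.92, 7.19 and 7.04 in untreated and 6.60, 6.09, 6.21 and 6.0 in treated samples. No treated value reached the untreated ones (difference -0.85, SE 0.16, adjusted p = 0.00495; within replicates 1 and 4 alone -0.80, adjusted p = 0.0503). The other tested Chek2 probe gave -0.83 with overlapping groups and did not pass (adjusted p = 0.0918). Atm gave 8.79, 8.49, 8.76 and 8.52 in untreated and 7.88, 7.99, 7.46 and 7.88 in treated samples (difference -0.84, SE 0.16, adjusted p = 0.00503). A second Atm probe fell by 0.53 on the log2 scale (difference -0.53, adjusted p = 0.0358), and 2 others gave -0.10 and -0.15 without passing. With the 4 probes averaged, Atm missed the threshold (-0.40, adjusted p = 0.0780). Chek1 was not tested, its highest probe being detected on 3 untreated and 0 TGF-beta arrays with 5.55, 5.43, 5.16 and 5.07 in untreated and 4.67, 4.52, 4.64 and 4.72 in treated samples. The groups did not overlap and the probe was at least 1.13-fold lower; in the limma fit of all probes without a filter its adjusted p was 0.0123, against 0.125 for Brca1, 0.0836 for Xrcc3, 0.442 for Fanci and 0.956 for Atr. Atr, seen on 1 untreated and 0 TGF-beta arrays, gave 4.78, 4.62, 4.75 and 5.22 in untreated and 4.84, 4.69, 4.78 and 4.90 in treated samples, which overlap and lie around the lowest detected signals.

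**Figure D2:**
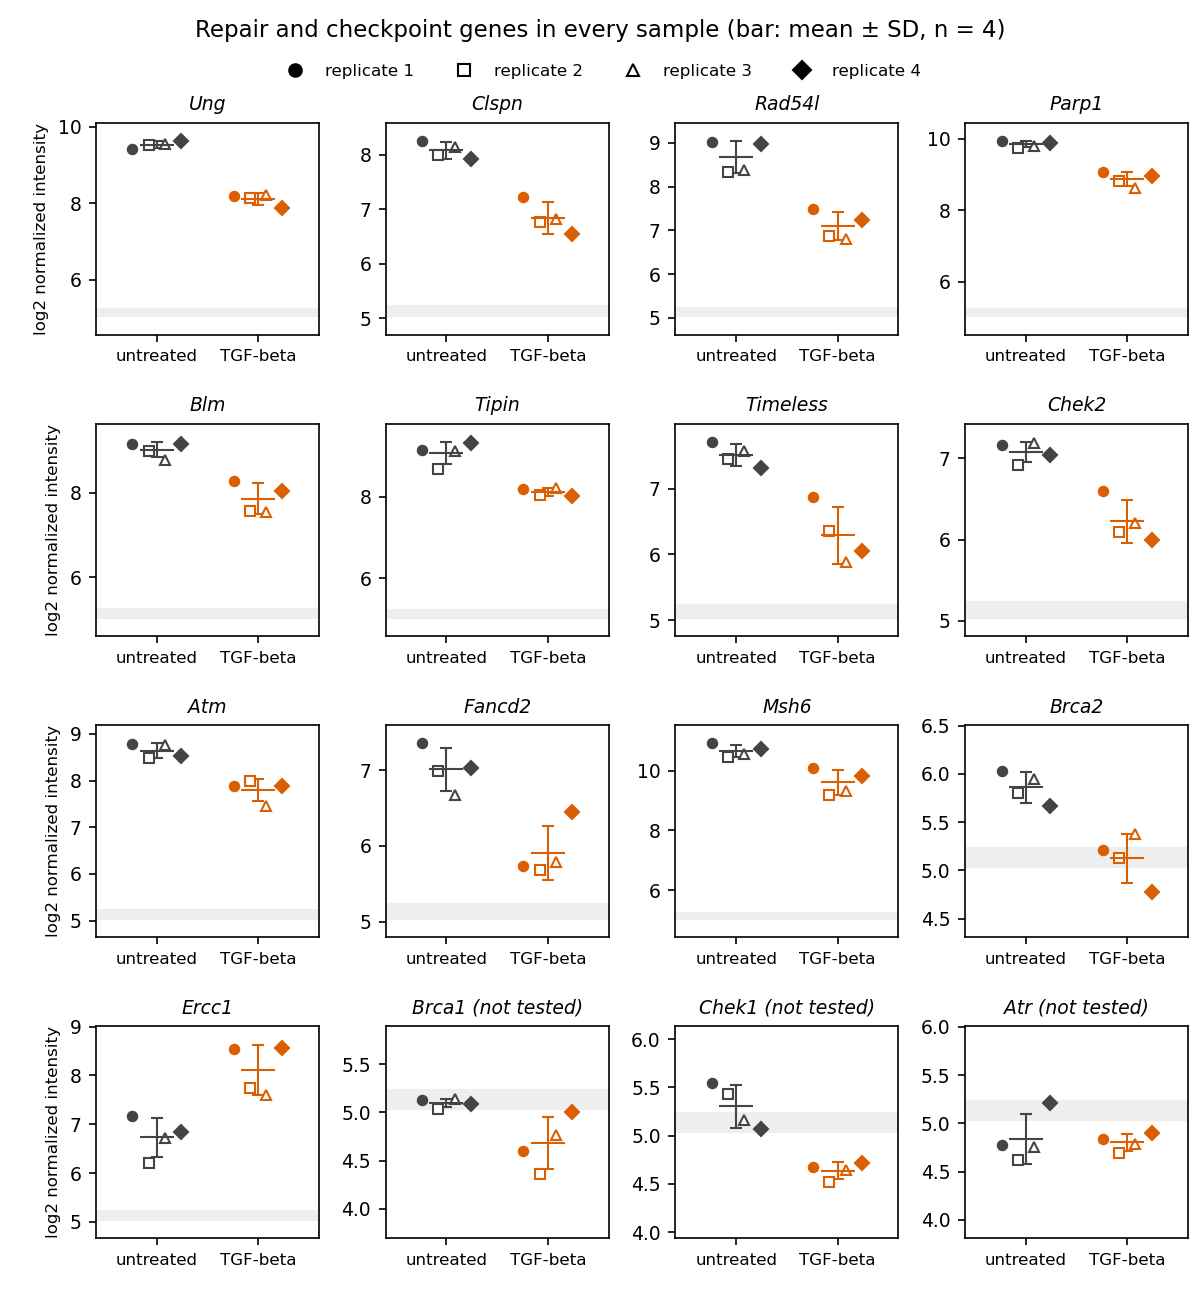
Log2 normalized intensity of 16 repair and checkpoint genes in every sample, with marker shape for the replicate number (filled for replicates 1 and 4), the group mean and SD as bars, and a grey band for the lowest detected signals of the 8 arrays. Ercc1 is higher in all 4 TGF-beta samples, while Brca1, Chek1 and Atr lie at or near the band.

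The 92 named probes of the 36 genes included 53 that were tested, of which 25 fell and 1 rose, against 8.99% and 9.21% of all 13513 tested named probes. Of 15 genes with several tested probes, 9 had probes on both sides of the threshold and 0 had probes past it in opposite directions. Another 11 probes were detected on 1 to 3 arrays, and 10 of these were detected on more untreated than TGF-beta arrays and 0 on more TGF-beta arrays, against 46.3% and 40.3% of all such named probes. The remaining 28 were detected on no array.

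Within replicates 1 and 4 alone 14 of the 28 genes fell, against 8.81% of all tested genes, and within replicates 2 and 3 alone 14 fell, against 9.21%. Of the genes that fell over all samples, Rad54l gave -1.63 and -1.53 in the 2 sets, Ung -1.49 and -1.37, Clspn -1.20 and -1.28, Parp1 -0.90 and -1.04, and Atm -0.78 and -0.90, in that order. The sets lay further apart for Tipin (-1.12 and -0.76), Blm (-1.0 and -1.33), Msh6 (-0.85 and -1.25), Timeless (-1.05 and -1.39) and Mre11a (-0.63 and -0.97). The difference in effect between the sets passed for 0 of the 28 genes (limma interaction term, smallest adjusted p = 0.371; 2 genes at an unadjusted p under 0.05), and for 0.011% of all tested genes. Exo1 and Fancl were the 2 genes with opposite signs in the sets.

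**Figure D3:**
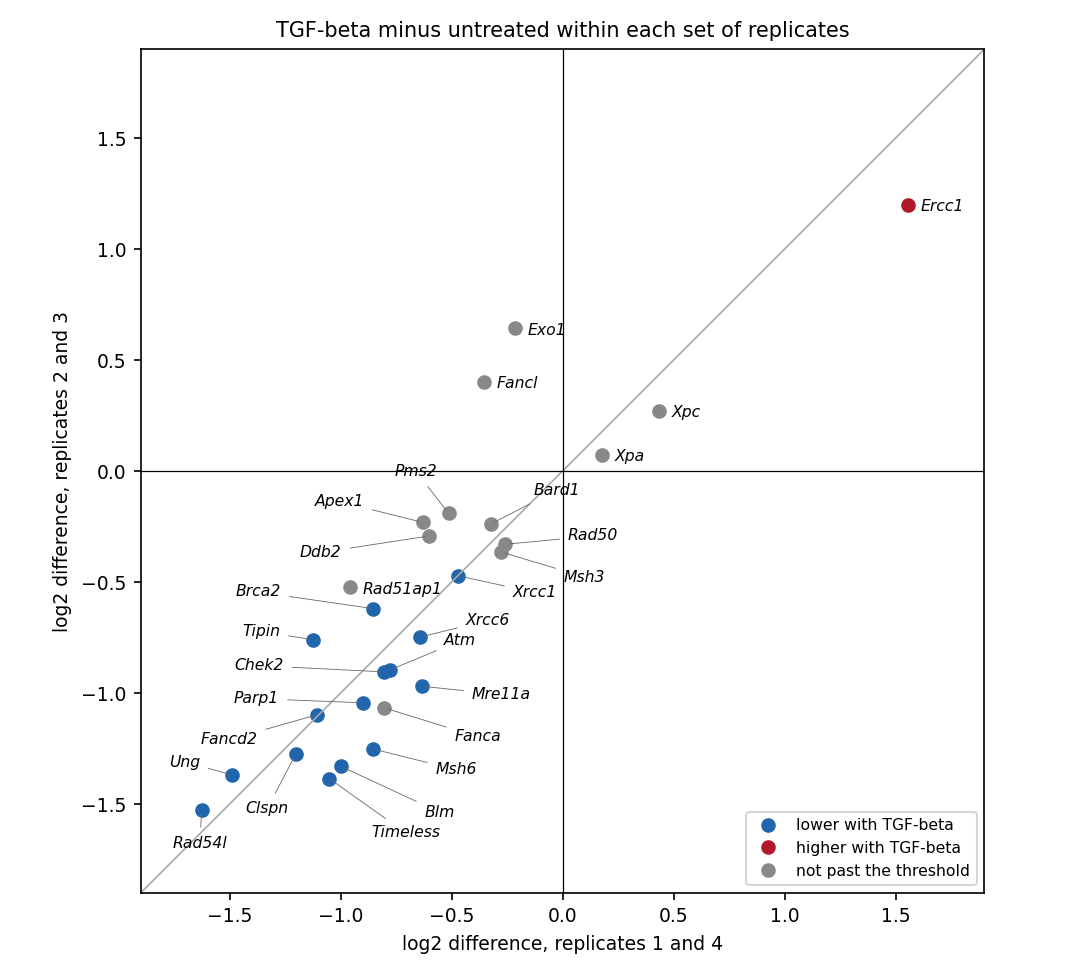
Log2 difference (TGF-beta minus untreated) of each tested repair or checkpoint gene in replicates 1 and 4 (x axis) and in replicates 2 and 3 (y axis), with the line of equal effect. All genes that fell lie in the lower left of the plot, and Exo1 and Fancl lie in the upper left.

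Other genes of the same pathways were lower more often than higher. Of 123 listed, 89 were tested, 30 fell and 2 rose, with a median difference of -0.35, beside the 9.88% and 9.57% of all tested genes. With the replicate block 41 fell and 3 rose, against 17.3% and 14.4% of all tested genes. By list, 9 fell in homologous recombination, 2 in Fanconi, 7 in mismatch repair, 5 in base excision and 1 in end joining. A further 5 fell in nucleotide excision, 4 in translesion synthesis and 9 in the checkpoint list. Topbp1 and Pcna stand in more than 1 list. Without untreated replicate 1 the number that fell was 19, and without any 1 of the 8 samples 0 or 1 rose. The genes named as past the threshold in each pathway have the smallest adjusted p. In homologous recombination 6 of 17 fell, among them the single-strand binding subunits Rpa2 (-1.26, adjusted p = 0.000562) and Rpa1 (-1.04, adjusted p = 0.00089) and the helicase Recql4 (-1.07, adjusted p = 0.00271). In the Fanconi pathway 2 of 8 fell: Usp1, which removes ubiquitin from FANCD2 (-1.34, adjusted p = 0.000239), and Faap24 (-1.07, adjusted p = 0.00768).

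A list of mismatch repair and resynthesis factors, several of which also copy DNA in S phase, had 7 of 9 lower. All 7 were resynthesis factors, among them the clamp loader subunits Rfc2 (-0.90, adjusted p = 0.000957) and Rfc5 (-1.20, adjusted p = 0.00483) and the ligase Lig1 (-1.33, adjusted p = 0.00321). The mismatch repair gene Mlh3 (-0.17, adjusted p = 0.475) and the clamp Pcna (-0.34, adjusted p = 0.407) did not pass. Of 12 base excision genes 3 fell: the flap nuclease Fen1 (-0.95, adjusted p = 0.000828), Parp2 (-0.54, adjusted p = 0.0186) and the glycosylase Nthl1 (-0.84, adjusted p = 0.0303). Of 6 end joining genes 1 fell, the histone H2ax that is phosphorylated at breaks (-0.99, adjusted p = 0.00606), and of 11 translesion genes 2 fell, the polymerase Poli (-0.91, adjusted p = 0.0192) and Ube2n (-0.48, adjusted p = 0.0425).

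Of 14 other nucleotide excision genes 3 fell and 1 rose. The helicase gene Ercc2, a subunit of TFIIH, rose (0.66, SE 0.18, adjusted p = 0.0295), Ercc8 fell (-0.68, adjusted p = 0.0332) and the TFIIH kinase cyclin Ccnh fell (-0.50, adjusted p = 0.0425). Of 14 other checkpoint genes 6 fell, among them the fork protein Wdhd1 (-1.03, adjusted p = 0.00206), the mitotic kinase Plk1 (-1.46, adjusted p = 0.00244) and the CDK-activating phosphatase Cdc25c (-1.0, adjusted p = 0.00632). The 1 that rose was Pkmyt1, an inhibitory kinase of CDK1 (0.87, SE 0.23, adjusted p = 0.0272).

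**Figure D4:**
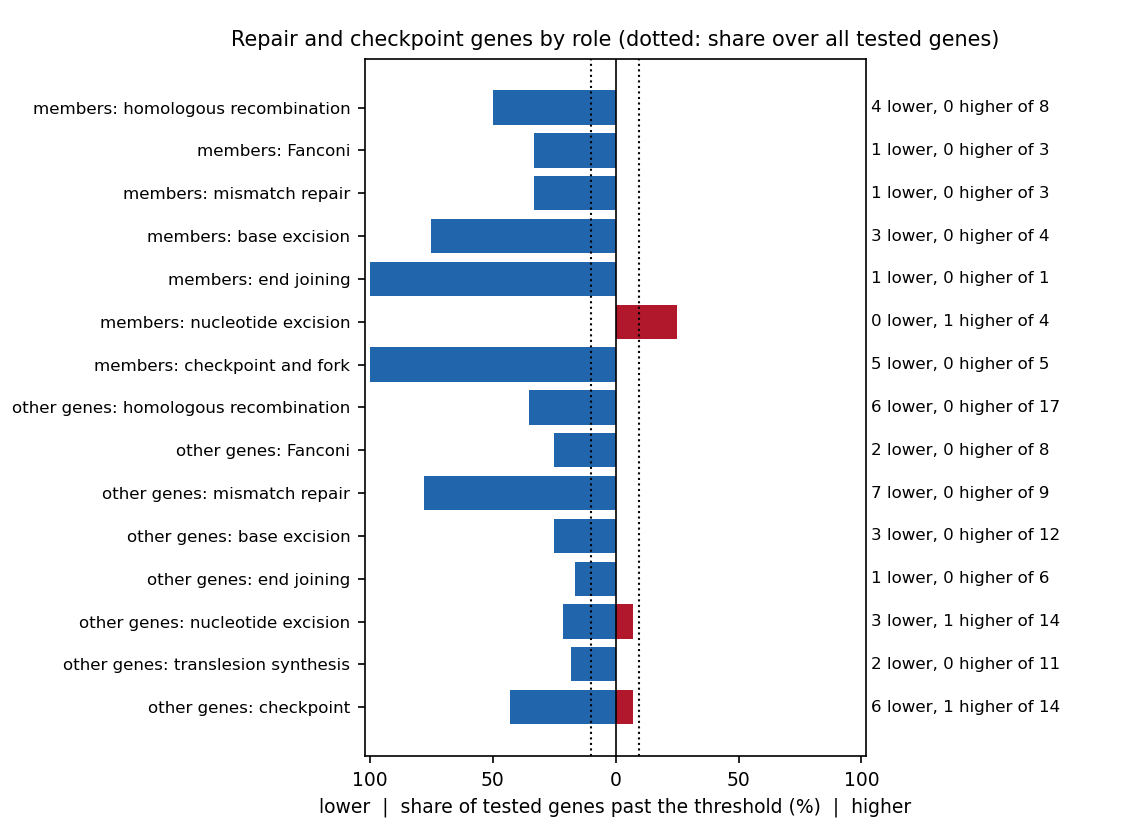
Share of tested genes past the threshold in each role (x axis, percent; lower to the left, higher to the right) for the 37 genes (members) and the other listed genes, with the counts at the right and dotted lines at the shares over all tested genes (9.88% lower, 9.57% higher). Checkpoint and fork genes have 5 of 5 lower, and nucleotide excision has 0 of 4 lower and 1 higher. The other genes under mismatch repair that fell are all resynthesis factors.

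In a published list of 43 genes expressed in S phase, 6 of which are among the 37, 25 other members were tested and 23 of them fell, for example the replicative helicase subunit Mcm5 (-1.51, adjusted p = 0.00042) and the histone chaperone subunit Chaf1b (-1.27, adjusted p = 0.000451). The part of a change in the share of cells in S phase in the repair gene results was not tested. In a list of 22 p53 target genes, 2 of which are among the 37, 17 were tested. Of these 1 rose, Plk2 (1.41, adjusted p = 0.0163), and 1 fell, Sesn1 (-0.77, adjusted p = 0.0291), with a median of -0.18. Beside the counts of both lists, 9.88% of all tested genes fell and 9.57% rose. With the replicate block 5 of the 17 p53 targets fell and 2 rose, against 17.3% and 14.4% of all tested genes.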

How the data were processed

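Total RNA of 8 organoid samples was hybridised to Illumina mouse arrays. The authors deposited 1 unnormalized bead intensity per probe and sample with a detection p-value, and a log2 value table that the values show to be quantile normalized. No label or header names the scanner software. Intensities were background-corrected by normexp from the detection p-values (offset 16), quantile normalized and log2 transformed in limma 3.58.1 under R 4.3.3. Of 45281 probes, 15573 with detection p under 0.05 on at least 4 of 8 arrays were tested. Groups were compared with lmFit and eBayes, with Benjamini-Hochberg adjustment over all tested probes and a threshold of 0.05; adjusted p-values in the text are limma's. SE is the moderated standard error. Of all probes, 34885 had 1 symbol in the platform annotation, 18 had several and 10378 were not listed. Each gene's value is that of the tested probe with the highest mean. The script was tested on simulated data. The number of arrays limits the precision.

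The 37 genes and the other lists were chosen with earlier results of these data known. All 37 are accounted for: the 12 smallest adjusted p-values past the threshold, and Brca1, Brca2, Chek1, Atm and Atr, have values in every sample, and of each other pathway list up to 3 genes past the threshold are named. Fold bounds compare the untreated mean with the mean over TGF-beta arrays of the probe's signal, raised to that array's lowest detected signal where it was below. The labels tie replicate numbers to nothing. Deviations from the group means correlated between same-numbered samples (0.534, 0.512, 0.514 and 0.554 for numbers 1 to 4), so the replicate block paired samples by number. The main fit compared the groups without this pairing. Alternatives covered background, scaling, filters, variances, probe averaging, blocks and left-out samples.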

Additional observations from a re-analysis of the deposited data

Results flagged for a closer look

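In 3 of 56 gene and group combinations of 4 samples, 1 sample lay far from the others by Dixon's ratio of gap to range; chance alone gives about 1 in 20. Rad51ap1 read 7.10 in untreated replicate 1 and 5.76 to 5.88 in the other untreated samples (ratio 0.911). Fancd2 read 6.44 in TGF-beta replicate 4 and 5.68 to 5.78 in the other treated samples (ratio 0.870). Msh3 read 5.15 in untreated replicate 1 and 5.35 in the others (ratio 0.974), near the lowest detected signals.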

How the results depend on the processing

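Among the 28 genes, 15 were lower, and the number ran from 13 to 18 over the alternatives run at the same threshold (13 to 16 with 1 sample left out, 18 with the replicate block, 11 at an adjusted p under 0.01); 1 was higher under each of them. Of 604 values of single genes, 563 kept direction and side of the threshold, 16 lost the call, 16 gained it and 9 changed sign, none of these called. The replicate block changed no call of these genes besides Fanca, Rad51ap1 and Ddb2. The median of -0.74 became -0.30 without background correction and -0.30 in the authors' value table, -0.86 with median scaling, -0.69 with cyclic loess, -0.57 without a filter, -0.84 with detection p under 0.01 and -0.80 with detection p under 0.05 on all 8 arrays, -0.67 with array weights, -0.47 with probes averaged, -0.71 within replicates 1 and 4, -0.68 within replicates 2 and 3, and -0.81 to -0.66 with 1 sample left out. Fancl changed sign to -0.13 with median scaling, -0.059 with array weights, -0.17 with probes averaged and -0.35 within replicates 1 and 4, and ran from -0.079 to 0.16 with 1 sample left out. Xpa changed sign with median scaling (-0.036) and Exo1 within replicates 1 and 4 (-0.21). Of the other pathway genes 30 were lower (41 with the replicate block, 19 to 28 with 1 sample left out, 14 at an adjusted p under 0.01) and 2 higher (0 with median scaling, within replicates 2 and 3 or at an adjusted p under 0.01, 1 without a filter, with detection p under 0.01 on all arrays or with probes averaged, 4 with the set of replicates as a block, 0 to 1 with 1 sample left out). Of all tested genes 895 were lower and 867 higher, against 1566 and 1302 with the replicate block, 572 lower without untreated replicate 1, and 495 higher with median scaling. The causes were not tested. The filter on all 8 arrays, the alternatives for the other pathway genes and those for the difference between sets were chosen after seeing the data. Signals near background limit Brca1, Chek1, Atr, Xrcc3, Msh3, Bard1 and Exo1.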
